A study of Mus musculus with 6 samples.

Results

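A set of 10 genes that store iron or answer oxidative stress was followed in sorted mouse mammary cells: Fth1 and Ftl1, which encode the ferritin subunits, and the NRF2 target genes Hmox1, Sqstm1, Nqo1, Gclc, Gclm, Txnrd1, Srxn1 and Slc7a11. These 10 genes were taken by symbol from the 55291 gene symbols of the count tables, and all 10 passed the filter on low counts that 17268 genes passed. The set was selected on levels measured in these same libraries, so the levels and fold changes of its genes are given as a description and support no statement about the list. RNA sequencing had been done on cells from the abdominal mammary glands of pubertal mice, 6 weeks old, in 3 groups of 2 libraries. Gpr125+ cells came either from the TEB-distal or from the nipple-proximal region of the gland, and Gpr125-negative cells formed the third group. TEB stands for terminal end bud, the growing tip of the pubertal duct. Every mouse of every group, the Gpr125-negative group included, was Adgra3-lz/+, that is, heterozygous for a β-galactosidase reporter in Adgra3, the gene for the adhesion receptor GPR125. Cells positive for CD31, CD45 or Ter119 (endothelial, immune and erythroid surface markers) had been excluded, cells with high surface CD49f (integrin α6) were kept, and Gpr125+ and Gpr125-negative cells were told apart by turnover of FDG, a substrate that β-galactosidase makes fluorescent. Glands from 5 mice were pooled for each library, so a replicate is a pool and not an animal, and the labels tie no region of the gland to the Gpr125-negative libraries. The tissue was digested with collagenase and hyaluronidase for 6 to 8 hours before sorting, and none of the 6 libraries came from undigested tissue.

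Ferritin is a hollow shell that holds iron as a mineral. Its heavy subunit (Fth1) oxidizes the iron that enters and its light subunit (Ftl1) helps to mineralize it, and the mix of heavy and light subunits varies between tissues. Translation of both mRNAs is held back by iron regulatory proteins, which bind a hairpin in the 5′ untranslated region when cells are short of iron. NRF2, encoded by Nfe2l2, is a transcription factor that KEAP1 delivers for degradation until oxidants or electrophiles modify KEAP1, upon which NRF2 binds antioxidant response elements with a small MAF partner. Its targets make glutathione (Slc7a11, Gclc, Gclm), keep thioredoxin and peroxiredoxins reduced (Txnrd1, Srxn1), detoxify quinones (Nqo1) and break down heme (Hmox1), and they include the ferritin genes and Sqstm1. BACH1 represses part of the same genes, Hmox1 above all.

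The iron-responsive hairpins are shown because they are the feature that the ferritin subunits share with the iron exporter Slc40a1. Each sequence is 30 bases of the 5′ untranslated region of the mouse transcript in GENCODE M21, written 5′ to 3′ as DNA, and the capitals mark the loop.

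Fth1: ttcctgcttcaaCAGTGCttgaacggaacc

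Ftl1: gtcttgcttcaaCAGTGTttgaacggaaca

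Slc40a1: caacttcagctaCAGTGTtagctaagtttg

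The loop began 99 bases from the transcript start in Fth1, 90 in Ftl1 and 102 in Slc40a1. The letters searched were CNNNNNCAGTGN on the transcript strand, and 4438 of 55678 coding transcripts with a 5′ untranslated region held them somewhere in that region (7.97%), so the letters alone do not mark a hairpin.

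Promoters were searched for the core letters of the antioxidant response element, TGACNNNGC, on both strands. The windows, from RefSeq on GRCm38.p6, ran from 250 bases before to 50 bases after each gene start, and 8 of the 10 genes had a window (Hmox1 and Gclc had none). Some genes had several starts, and the core was found in 3 of the 11 windows of these genes (27.3%), each in a different gene, and in 4071 of all 32851 windows (12.4%). In the 3 genes it lay each time in reverse orientation, GCNNNGTCA, shown in capitals on the plus strand.

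Gclm, chr3:122245413-122245441: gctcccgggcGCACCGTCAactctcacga

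Txnrd1, chr10:82859104-82859132: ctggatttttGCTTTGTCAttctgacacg

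Srxn1, chr2:152105542-152105570: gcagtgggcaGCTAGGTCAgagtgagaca

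The first capital lay 134 bases before the gene start in Gclm (an offset of -134), at -92 in Txnrd1 and at 28 bases past the start in Srxn1. The Txnrd1 start in this window is a RefSeq start that lies inside the gene as GENCODE M21 bounds it. A match of letters describes the window and does not show binding.

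Total counts ranged from 20134890 to 37296640 per library, so that 3 counts, the smallest level taken as measurable, equalled 0.0804 to 0.149 CPM (counts relative to the library total). Libraries were made from full-length cDNA without molecular identifiers, and intervals and floors therefore cover counting error only. The libraries differed within groups: 17401 to 21963 genes were detected, mitochondrial transcripts took 0.301% to 3.15% of counts, and the biological coefficient of variation of the fit over all genes was 0.967. Adgra3, the gene behind the sort, was at 35.7 and 18.6 normalized CPM in libraries labelled Gpr125-negative, 15.0 and 4.83 in those labelled TEB-distal, and 19.2 and 12.3 in those labelled nipple-proximal, which goes against the labels. Directions between groups below are therefore directions between libraries so labelled. In bulk RNA, fewer cells of a type and less RNA per cell cannot be told apart.

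The 10 genes together held 7.90% and 4.64% of all counts in libraries labelled Gpr125-negative, 3.92% and 6.25% in those labelled TEB-distal, and 7.49% and 7.17% in those labelled nipple-proximal. The 95% Wilson intervals were at most as wide as 7.48% to 7.50%, far narrower than the gap between replicates of the Gpr125-negative or of the TEB-distal group. Most of this share came from 4 genes. By normalized CPM (CPM after edgeR's TMM scaling), Fth1 ranked 1 to 3 among all genes of the count tables depending on the library, Ftl1 ranked 1 to 16, Hmox1 2 to 9 and Sqstm1 4 to 6. Long transcripts gather more reads, so levels were also compared per kilobase (kb) of the main transcript: on that scale Fth1 ranked 1 to 5, Ftl1 1 to 9, Hmox1 2 to 11 and Sqstm1 8 to 11. The other 6 genes stood lower per kb, from Srxn1 at ranks 43 to 180 to Slc7a11 at ranks 573 to 2045. Averaged over the 6 libraries, the levels per kb were 13390 CPM for Fth1 and 12962 for Ftl1, which overlapped across libraries, then 7988 for Hmox1, 5047 for Sqstm1, 686 for Srxn1, 424 for Gclc, 348 for Txnrd1, 289 for Gclm, 126 for Nqo1 and 68.4 for Slc7a11.

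**Figure D1:**
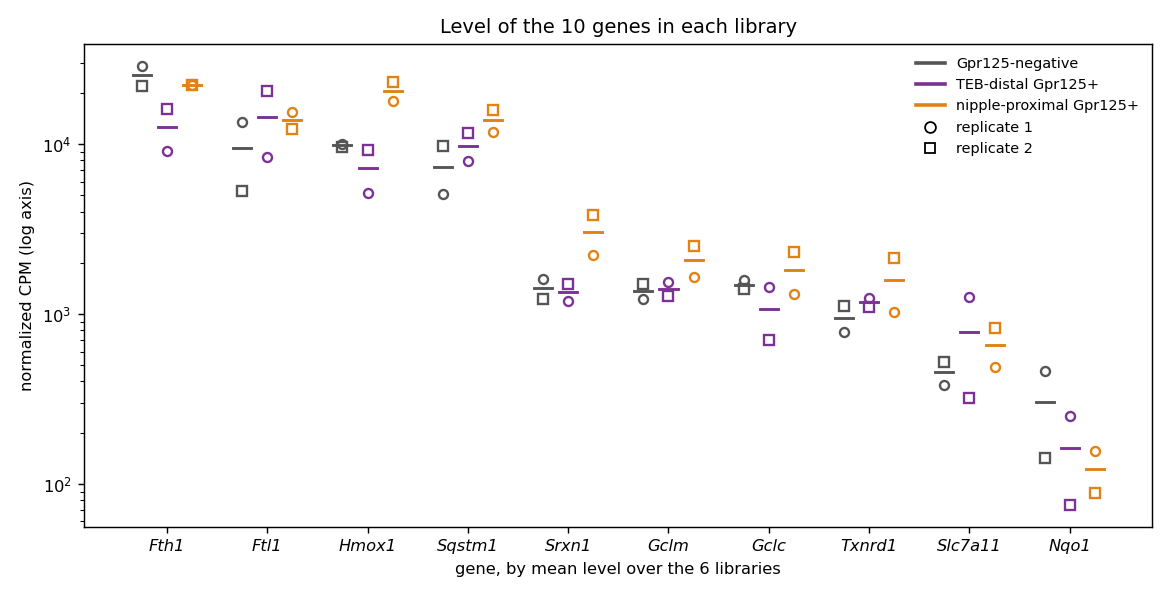
Levels of the 10 genes in the 6 libraries, in normalized CPM on a log axis. Each point is a library (circle, replicate 1, and square, replicate 2), colors mark the 3 groups and short lines the group means; Fth1, Ftl1, Hmox1 and Sqstm1 lie at or above 5044 CPM in every library, and Nqo1 at or below 463.

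Fth1 encodes the heavy ferritin subunit and lies at chr19:9980598-9985098 on the plus strand (GRCm38, GENCODE M21, as for all gene positions here). Its normalized level was 28757 and 21918 CPM in libraries labelled Gpr125-negative, 9036 and 15961 in those labelled TEB-distal, and 22295 and 22063 in those labelled nipple-proximal. Both TEB-distal libraries were below all 4 others, and the nipple-proximal replicates were nearly equal. The group means were 25337 ± 4836 (SD, n = 2), 12499 ± 4896 and 22179 ± 164 CPM. The fitted log2 fold change of TEB-distal against Gpr125-negative cells was -1.02 (SE 0.84), and that against nipple-proximal cells was -0.83 (SE 0.83).

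Ftl1 encodes the light ferritin subunit and lies at chr7:45457944-45459884 on the minus strand. Its level was 13520 and 5304 CPM in libraries labelled Gpr125-negative, 8345 and 20547 in those labelled TEB-distal, and 15320 and 12251 in those labelled nipple-proximal. The TEB-distal replicates enclosed both nipple-proximal values, all 3 groups overlapped, and the fold change of TEB-distal against nipple-proximal cells was 0.07 on the log2 scale (SE 0.91). Ftl1 is the least certain count of the list, because the mouse genome holds many processed copies of it: 58.4% of the 50-base windows of its transcripts were found unchanged in transcripts of 17 other genes, and 34.6% of its exon bases overlap Gm10252 and Gm22133. The 3 rows of the tables whose symbols mark light-chain pseudogenes held counts equal to 0.978% to 3.71% of those of Ftl1. Genes under other symbols that share its windows, such as Gm15590 and Gm10252, were not included in that share. Fth1 shared 1.59% of its windows with another gene.

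The ratio of Fth1 to Ftl1 mRNA per kb was 1.38 and 2.68 in libraries labelled Gpr125-negative, 0.702 and 0.503 in those labelled TEB-distal, and 0.943 and 1.17 in those labelled nipple-proximal. Protein was not measured, so the balance of the subunits is not known. The ratio was highest in both Gpr125-negative libraries and lowest in both TEB-distal libraries, with the nipple-proximal libraries between them. Other genes hold 58.4% of the windows of Ftl1 but 1.59% of those of Fth1, so a ratio of 1 does not mark equal amounts. The groups did not overlap. This ratio was singled out after its values had been seen and was not tested, and with 2 libraries a side an exact permutation test cannot go below p = 0.333.

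**Figure D2:**
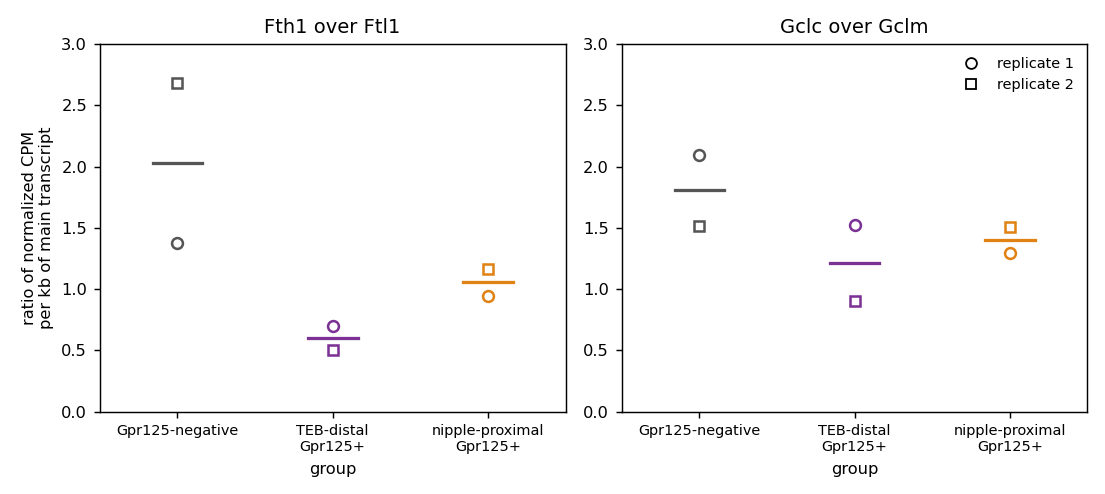
Ratio of Fth1 to Ftl1 (left) and of Gclc to Gclm (right) in each library, from normalized CPM per kb of main transcript, on linear axes from 0. Circles are replicate 1, squares replicate 2 and lines the group means; the Fth1 to Ftl1 ratio is 1.38 and 2.68 in Gpr125-negative and 0.702 and 0.503 in TEB-distal libraries, whereas the Gclc to Gclm ratio overlaps between groups.

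Hmox1, at chr8:75093621-75100589 on the plus strand, encodes heme oxygenase 1, which opens the heme ring and sets free iron, carbon monoxide and biliverdin. It stood at 10008 and 9595 CPM in libraries labelled Gpr125-negative, 5161 and 9248 in those labelled TEB-distal, and 17898 and 23285 in those labelled nipple-proximal. The groups followed each other without overlap, nipple-proximal highest and TEB-distal lowest, although the higher TEB-distal library came close to the lower Gpr125-negative library. The fold change was -1.51 on the log2 scale for TEB-distal against nipple-proximal cells (SE 0.83), 1.07 in nipple-proximal relative to Gpr125-negative cells (SE 0.82) and -0.44 for TEB-distal against Gpr125-negative cells (SE 0.81). None of its transcripts' 50-base windows occurred in another gene.

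Sqstm1, at chr11:50199366-50210827 on the minus strand, encodes p62, a receptor that carries ubiquitinated cargo to autophagosomes and that also binds KEAP1. Its level was 5044 and 9667 CPM in libraries labelled Gpr125-negative, 7947 and 11538 in those labelled TEB-distal, and 11717 and 15768 in those labelled nipple-proximal. Both nipple-proximal libraries were above all others, the lower of them by a narrow margin, and the fold change of nipple-proximal against Gpr125-negative cells was 0.90 on the log2 scale (SE 0.83). The gene shares 17.3% of its exon bases with the neighboring gene Mrnip. Counting did not use strand, so reads from that overlap cannot be assigned to either gene.

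Slc7a11, at chr3:49892526-50443614 on the minus strand, encodes the cystine importer xCT, which brings in the building block for glutathione. Its level was 382 and 522 CPM in libraries labelled Gpr125-negative, 1249 and 319 in those labelled TEB-distal, and 488 and 824 in those labelled nipple-proximal. The TEB-distal replicates were 3.91-fold apart and held both the highest and the lowest value of the 6 libraries. Slc3a2, the heavy chain that xCT needs at the membrane, was measured at 1451 to 4107 CPM over the libraries.

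Gclc and Gclm encode the catalytic and modifier subunits of glutamate-cysteine ligase, the first and rate-limiting step of glutathione synthesis, and lie at chr9:77754535-77794485 and chr3:122245557-122270732, both on the plus strand. Gclc was at 1575 and 1392 CPM in libraries labelled Gpr125-negative, 1430 and 703 in those labelled TEB-distal, and 1304 and 2310 in those labelled nipple-proximal, with overlap between all groups. Gclm was at 1230 and 1498, 1533 and 1273, and 1645 and 2504 CPM in the same order. Gclm was the least variable gene of the list, its highest library being 2.04 times its lowest. Both nipple-proximal values of Gclm were above the other 4 libraries, with a fold change against Gpr125-negative cells of 0.61 on the log2 scale (SE 0.73). The ratio of Gclc to Gclm per kb was between 0.901 and 2.09 and overlapped between groups. Of the 50-base windows of Gclm, 4.58% were also found in other genes, and for Gclc 0%.

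Txnrd1, at chr10:82833951-82897712 on the plus strand, encodes cytosolic thioredoxin reductase. Its level was 781 and 1106 CPM in libraries labelled Gpr125-negative, 1244 and 1089 in those labelled TEB-distal, and 1021 and 2128 in those labelled nipple-proximal, and the high value of 1 nipple-proximal library was not matched by its replicate. Srxn1, at chr2:152105516-152111376 on the plus strand, encodes sulfiredoxin, which restores peroxiredoxins that peroxide has overoxidized. Srxn1 was at 1609 and 1226 CPM in libraries labelled Gpr125-negative, 1188 and 1497 in those labelled TEB-distal, and 2210 and 3840 in those labelled nipple-proximal. Both nipple-proximal libraries were above the other 4, with fold changes of 1.09 on the log2 scale against Gpr125-negative cells (SE 0.76) and, for TEB-distal against nipple-proximal cells, of -1.17 (SE 0.76).

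Nqo1, at chr8:107388225-107403206 on the minus strand, encodes NAD(P)H quinone dehydrogenase 1 and is widely used as a readout of NRF2 activity. Its level was 463 and 141 CPM in libraries labelled Gpr125-negative, 250 and 75.1 in those labelled TEB-distal, and 156 and 88.0 in those labelled nipple-proximal. It was the most variable gene of the list (6.17-fold between its highest and lowest library). Replicate 1 of the Gpr125-negative group was highest and the nipple-proximal libraries were in the lower part of the range, whereas those libraries were the highest for Hmox1, Sqstm1, Gclm and Srxn1. The fold change of nipple-proximal against Gpr125-negative cells was -1.31 on the log2 scale (SE 0.90), with overlap, and it was -0.34 without replicate 1 of the Gpr125-negative group.

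The design allows 3 comparisons, of each Gpr125+ population with Gpr125-negative cells and of the Gpr125+ populations with each other. The comparisons with Gpr125-negative cells share the same control libraries. Calls required an adjusted p (Benjamini-Hochberg) under 0.1 in edgeR's quasi-likelihood test together with a change of at least 2-fold. None of the 10 genes was called in any of the 3 comparisons (0 of 10 each), where 0% of all tested genes were called in each. At an unadjusted p under 0.05 the count was also 0 of 10, against 6.05% of all tested genes for TEB-distal and 3.55% in the same test of nipple-proximal cells, and 2.21% between the Gpr125+ populations. DESeq2 called none of the 10 genes either. It was run on more genes than edgeR: it called 3.22%, 1.1% and 0.441% of 29282 genes in the fit to 6 libraries, in the same order of comparisons, and 2.45% of 27210, 1.16% of 27386 and 1.31% of 27380 genes in fits to the 4 compared libraries. Among the 17268 genes of the edgeR fit, the fit to 6 libraries called 875, 308 and 124. The intervals of the fold changes were wide: the 95% interval for Fth1 in TEB-distal against Gpr125-negative cells ran from -2.95 to 0.91 on the log2 scale.

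Between TEB-distal and Gpr125-negative libraries, 2 of 10 genes did not overlap and were lower in TEB-distal (Fth1 and Hmox1), where 10% of all tested genes were so placed, and 0 of 10 were higher, where 14% were. The fitted change was above 0 for 5 of the 10 genes (51.1% of all tested genes), with a median of -0.02 on the log2 scale beside 0.03 over all genes.

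Nipple-proximal libraries were above both Gpr125-negative libraries for 4 of 10 genes (Hmox1, Sqstm1, Gclm and Srxn1), where 19.9% of all tested genes were so placed, and below them for 0 of 10, where 10.8% were. The fitted change was above 0 for 8 of 10 genes (49.6% of all tested genes), Fth1 and Nqo1 being below 0, and its median was 0.58 on the log2 scale beside -0.00 over all genes. Without replicate 2 of the nipple-proximal group this median was 0.21.

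TEB-distal libraries were below both nipple-proximal libraries for 5 of 10 genes (Fth1, Hmox1, Sqstm1, Gclm and Srxn1), where 18.3% of all tested genes were so placed, and above them for 0 of 10, where 15.2% were. The fitted change was above 0 for 3 of 10 genes (52.6% of all tested genes). The median of the fitted changes was -0.53 on the log2 scale beside 0.06 over all genes, and it was -0.27 without replicate 2 of the nipple-proximal group. Because these genes were listed with their levels known, these counts are a description and are not set against chance.

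**Figure D3:**
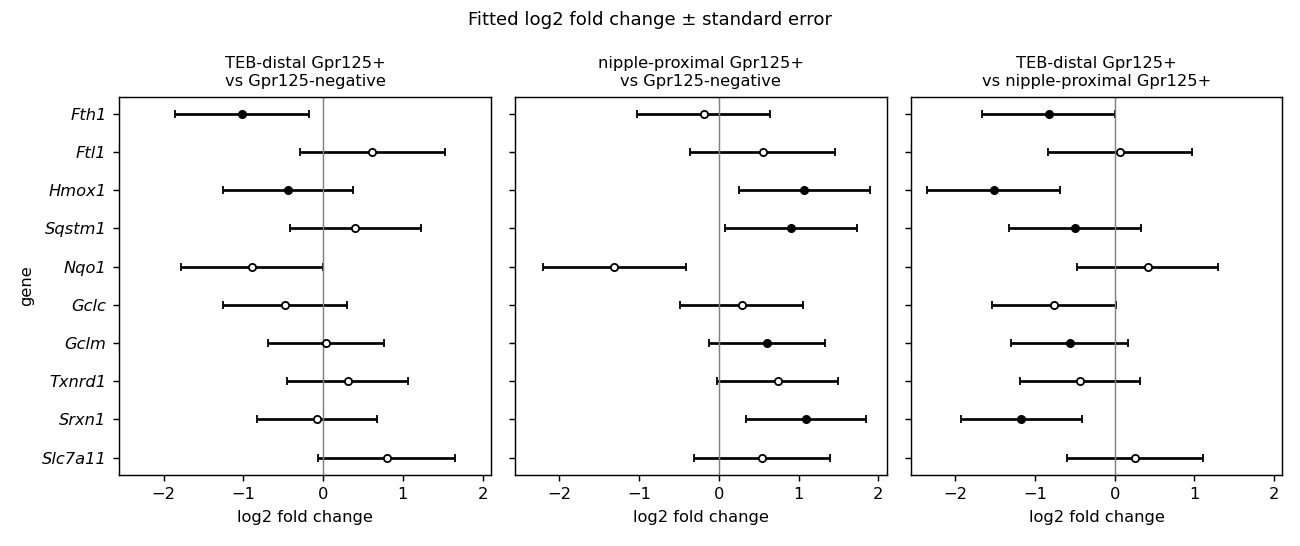
Fitted log2 fold changes of the 10 genes in the 3 comparisons, with bars of 1 standard error from edgeR's quasi-likelihood fit. Filled points mark genes whose groups do not overlap; these are 2, 4 and 5 genes in the 3 panels, and none of the 10 genes was called in any.

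The genes did not keep a single pattern over the 6 libraries. Replicate 2 of the nipple-proximal group was the highest library for 6 of the 10 genes, replicate 1 of the Gpr125-negative group for Fth1 and Nqo1, replicate 2 of the TEB-distal group for Ftl1 and replicate 1 of that group for Slc7a11. The share of all tested genes that were highest in each library was not computed, so these counts are not read as a trait of the 10 genes. The median range between the highest and lowest library was 1.70 on the log2 scale for the 10 genes and 2.99 for all tested genes. Replicates differed by a median of 0.42 on the log2 scale for these genes in the Gpr125-negative group (1.65 for all genes), 0.83 in the TEB-distal group (1.20) and 0.68 in the nipple-proximal group (0.59). The tested genes include many at far lower levels and were not matched to the 10 genes by level. These medians therefore do not show that the 10 genes were unusually steady.

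Likeness of pattern was measured as the root mean square distance between log2 CPM values, each gene centered on its own mean, over the 6 libraries. Among the 10 genes the closest pair was Gclm and Txnrd1 (distance 0.19), followed by Hmox1 and Srxn1 (0.29) and Sqstm1 and Txnrd1 (0.33). The ferritin subunits were 0.76 apart. Nqo1 was far from all the others, at 0.89 from Gclc and up to 1.38 from Sqstm1. The search covered 8171 genes with a mean of at least 3 on the log2 CPM scale, the 10 listed genes included. Outside the list, the nearest were Surf4 for Hmox1 (0.14), Plin2 for Srxn1 (0.13), Nxt1 for Fth1 (0.10), Pfn1 for Ftl1 (0.09) and Lima1 for Sqstm1 (0.14). For the rest they were Wdr3 for Gclm (0.09), Tvp23b for Txnrd1 (0.10), Stk4 for Gclc (0.14), Ubqln2 for Slc7a11 (0.07) and Neat1 for Nqo1 (0.16). Each gene had an outside gene nearer than its nearest partner on the list. All distances rest on the same 6 libraries and a search over many genes, and are descriptions.

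**Figure D4:**
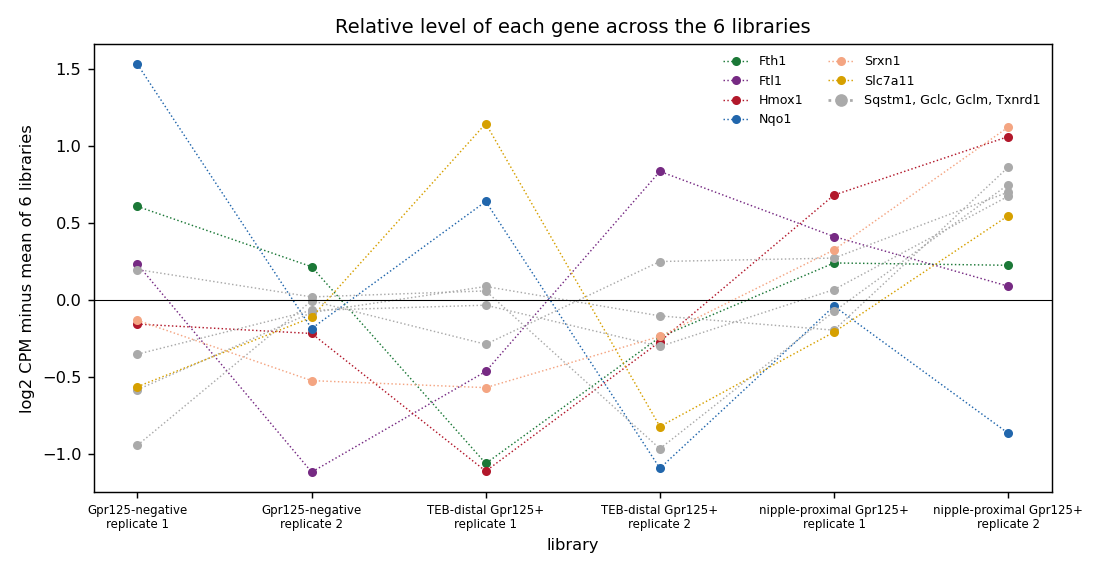
Log2 CPM of each of the 10 genes relative to its own mean over the 6 libraries. Lines only join the points of 1 gene and imply no order of libraries. Replicate 2 of the nipple-proximal group is the highest library for 6 genes (the share of all genes was not computed), and Nqo1 runs apart from the others.

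The regulators of the pathway were also measured, in a list of 10 genes that were all tested, with 0 of 10 called in each comparison. Nfe2l2, encoding NRF2 itself, was at 208 and 565 CPM in libraries labelled Gpr125-negative, 495 and 255 in those labelled TEB-distal, and 420 and 500 in those labelled nipple-proximal, so that its groups overlapped. Bach1 was at 31.8 to 88.8 CPM, with overlap between groups. Nfe2l1, encoding the related factor NRF1, was at 161 and 122, 103 and 172, and 245 and 319 CPM in the same order, highest in both nipple-proximal libraries; its fold change for TEB-distal against nipple-proximal cells was -1.04 on the log2 scale (SE 0.67, adjusted p = 1, edgeR). Keap1 was lower in both TEB-distal libraries (63.7 and 76.1 CPM) than in both nipple-proximal libraries (157 and 110 CPM), with a fold change of -0.93 (SE 0.73). Regulators that did not overlap numbered 1 lower in TEB-distal against Gpr125-negative cells (Rbx1, a subunit of the ubiquitin ligase that KEAP1 serves, -0.34, SE 0.64), 2 higher in nipple-proximal against Gpr125-negative cells (Nfe2l1 and Mafk, a small MAF partner) and 3 lower in TEB-distal against nipple-proximal cells. Over all tested genes these placements held 10%, 19.9% and 18.3%.

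Of 23 other NRF2 targets, 0 were called and 0 passed an unadjusted p under 0.05 in any comparison. Their median fold changes were -0.07, -0.12 and -0.00 on the log2 scale for TEB-distal against Gpr125-negative, nipple-proximal against Gpr125-negative and TEB-distal against nipple-proximal cells. The values of the 10 genes in the same comparisons were -0.02, 0.58 and -0.53, and the difference between the lists was not tested. Groups that did not overlap were lower for 1 of the 23 in the first comparison (10% of all tested genes), higher for 4 (19.9%) and lower for 1 (10.8%) in the second, and higher for 2 (15.2%) and lower for 4 (18.3%) in the last. Osgin1, a stress-induced growth inhibitor, was at 454 and 421 CPM in libraries labelled Gpr125-negative, 296 and 808 in those labelled TEB-distal, and 920 and 1133 in those labelled nipple-proximal. Me1, which makes NADPH, was also above both Gpr125-negative libraries in both nipple-proximal libraries, with a fold change of 0.83 (SE 0.66). Gsr, which regenerates reduced glutathione, was at 217 and 156 CPM in the libraries labelled Gpr125-negative and 110 and 26.9 in the TEB-distal libraries (fold change -1.45 on the log2 scale, SE 0.82, adjusted p = 0.922, edgeR). Mgst1, a membrane-bound glutathione transferase, and Cbr1, a carbonyl reductase, were higher in both TEB-distal than in both nipple-proximal libraries, by 1.55 (SE 0.94) and 1.05 (SE 0.87) on the log2 scale.

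Of 18 genes of iron handling, 17 were tested (Ftmt, mitochondrial ferritin, had 0 counts in every library, which allows up to 0.149 CPM) and 0 were called. Trf, encoding transferrin, the carrier of iron outside cells, was at 217 and 208 CPM in libraries labelled Gpr125-negative, 70.0 and 8.03 in those labelled TEB-distal, and 106 and 78.4 in those labelled nipple-proximal. It was the only gene of the 5 lists at an unadjusted p under 0.05, and only in TEB-distal against Gpr125-negative cells (log2 fold change -2.44, SE 1.00, adjusted p = 0.815, edgeR). That change was -1.61 without replicate 2 of the TEB-distal group, no longer at an unadjusted p under 0.05, and -4.73 without replicate 1 of that group. Slc39a14, an importer of iron and zinc, was at 15.2 and 32.1, 8.03 and 12.8, and 27.6 and 25.8 CPM, and its TEB-distal libraries were below all others. The exporter Slc40a1, whose hairpin is printed above, was at 43.4 and 61.5, 65.0 and 3.17, and 18.1 and 33.8 CPM, and the transferrin receptor Tfrc was at 31.8 to 132 CPM with overlap between groups. Ncoa4, the receptor that takes ferritin to the lysosome, stayed between 25.1 and 43.5 CPM. Over the 17 genes the median fold changes were -0.12, 0.03 and -0.24 on the log2 scale, and TEB-distal libraries were below both nipple-proximal libraries for 4 of them (18.3% of all tested genes) and above for 0 (15.2%).

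The 20 further genes of glutathione, thioredoxin and peroxide metabolism had 0 calls, with median fold changes of 0.11, -0.08 and -0.03 on the log2 scale in the same order of comparisons. Chac1, which degrades glutathione, was at 58.8 and 50.1 CPM in libraries labelled Gpr125-negative, 37.1 and 99.9 in those labelled TEB-distal, and 119 and 154 in those labelled nipple-proximal. Catalase (Cat) was higher in both nipple-proximal than in both Gpr125-negative libraries, by 1.06 on the log2 scale (SE 0.86). Mitochondrial thioredoxin reductase, Txnrd2, was at 19.7 and 49.7 CPM in TEB-distal against 11.1 and 6.31 in nipple-proximal libraries, a fold change of 1.99 on the log2 scale (SE 0.92, adjusted p = 1, edgeR). For its cytosolic counterpart Txnrd1 that fold change was -0.43 (SE 0.76). Txnip, an inhibitor of thioredoxin, was lower in both TEB-distal than in both Gpr125-negative libraries (-1.24, SE 0.78), and Prdx4, a peroxiredoxin of the secretory pathway, was higher in both TEB-distal than in both nipple-proximal libraries (1.06, SE 0.69).

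Of 12 genes of autophagy receptors, ATG8 proteins and their regulators, the company of Sqstm1, 0 were called. Wipi1, which acts in autophagosome formation, was at 22.2 and 16.4 CPM in libraries labelled Gpr125-negative, 36.5 and 54.3 in those labelled TEB-distal, and 38.9 and 40.6 in those labelled nipple-proximal. Both Gpr125+ groups were above both Gpr125-negative libraries, with fold changes of 1.24 (SE 0.66, adjusted p = 0.888, edgeR) and 1.04 (SE 0.66, adjusted p = 1) on the log2 scale. Map1lc3a, an ATG8 protein, was at 134 and 134, 109 and 478, and 233 and 289 CPM. Gabarapl2, another ATG8 protein, was lower in both nipple-proximal libraries than in the other 4, and Tfeb, a transcription factor for lysosomal genes, was lower in both TEB-distal libraries (5.26 and 12.3 CPM) than in the other 4 (13.6 to 17.9 CPM).

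**Figure D5:**
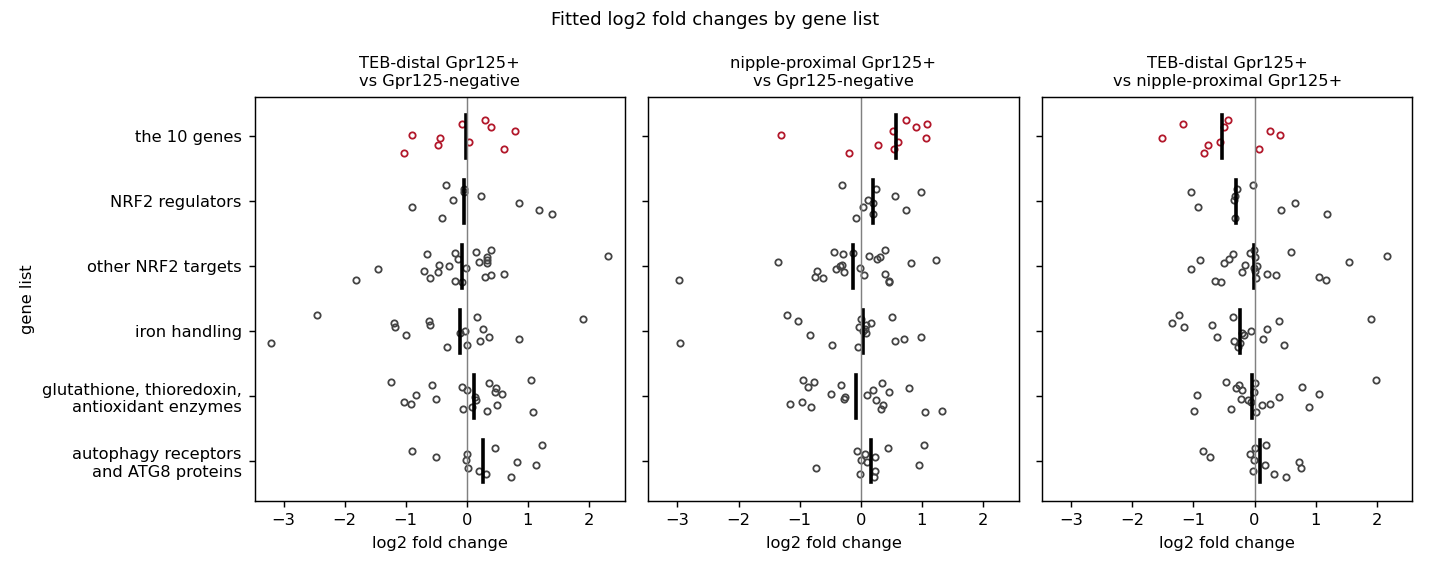
Fitted log2 fold changes of the 10 genes and of the 5 wider lists in the 3 comparisons, each point a gene and each line a list's median, on a shared axis. No gene of any list was called; the medians of the 10 genes are -0.02, 0.58 and -0.53 in the 3 panels.

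Ferritin and Hmox1 are abundant in macrophages and erythroid cells, so markers of other cells are given beside them. The summed level of 12 macrophage markers was 92.8 to 137 CPM in the libraries labelled Gpr125-negative, 147 to 307 in the TEB-distal and 117 to 207 in the nipple-proximal libraries. Cd68, a lysosomal gene that is not limited to macrophages, made up much of this sum, and the order of the groups follows it. It was at 71.1 and 43.3, 119 and 290, and 178 and 99.2 CPM in the same order of groups. Cd14 went the other way, at 56.0 and 17.0 CPM in the libraries labelled Gpr125-negative and 3.85 to 8.94 in the others. Csf1r was at 0.885 to 17.1, Lyz2 at 4.28 to 10.4 and Ptprc at 1.98 to 9.24 CPM. The other 7 macrophage markers, Adgre1 and the C1q genes among them, were at most 2.85 CPM in any library. Replicate 2 of the TEB-distal group had the highest Ftl1, and its macrophage markers were mixed. It was highest for Cd68, Adgre1 (0.511 CPM) and C1qc (0.715 CPM). It was lowest for Cd14 (3.85 CPM), Fcgr3 (0.306 CPM) and Csf1r (0.885 CPM, near the 0.897 CPM of its replicate 1), and Lyz2 was at 7.46 CPM. The 7 erythroid markers found in the tables, of 8 listed, summed to 0.0491 to 1.32 CPM, and Hba-a2 and Slc4a1 were at 0 counts in every library. Endothelial markers summed to 988 to 1440 CPM in the libraries labelled Gpr125-negative, 19.6 to 24.0 in the TEB-distal and 30.2 to 273 in the nipple-proximal libraries, and adipocyte markers to 644 to 672, 8.89 to 17.9 and 1.65 to 23.6 CPM. Fabp4, which endothelial cells also express, made up nearly all of the adipocyte sum, at 672 and 631 CPM in the libraries labelled Gpr125-negative. Car3 was at 12.6 CPM in replicate 2 of the Gpr125-negative group and at 0 in the other 5 libraries. Adipoq, Plin1, Cidec and Lep were at most 0.511 CPM in any library. Basal epithelial markers, which a gate on high CD49f should enrich, summed to 3393 to 3554, 4017 to 23031 and 9449 to 14952 CPM. Not all of these markers followed the sum. Trp63 was at 58.1 and 8.40, 7.33 and 6.47, and 17.6 and 9.23 CPM in the same order of groups. Krt5 was at 839 and 215, 227 and 766, and 922 and 545 CPM. Luminal markers summed to 1448 to 2715, 2730 to 3056 and 2212 to 2966 CPM. Fibroblast markers summed to 31.6 to 155, 93.6 to 175 and 54.7 to 69.5 CPM. The genes induced by tissue dissociation summed to 8808 and 43538 CPM in libraries labelled Gpr125-negative, 23724 and 34283 in those labelled TEB-distal, and 18003 and 21171 in those labelled nipple-proximal. Heat shock genes made up most of these sums, and Hspa1b alone was at 1260 and 19834 CPM in the libraries labelled Gpr125-negative. Jun, Atf3 and the other heat shock genes listed were also higher in replicate 2 of that group. Fos (459 and 231 CPM), Fosb, Junb, Egr1 and Ier2 were instead higher in its replicate 1. The part of these cells and of dissociation in the levels of the 10 genes was not tested.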

How the data were processed

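The authors aligned reads of SMART-Seq HT libraries to mm10 and deposited raw counts per gene for each library, made with HTSeq, unstranded and not normalized. The aligner was STAR, version 2.7.3 by the submitters' processing notes; the annotation release is not given in the sources used here. Samples were grouped by their labels. The members and gene lists were chosen with earlier results of these data known. A single model of the 3 groups was fitted to all 6 libraries by edgeR 4.0.16 (R 4.3.3) after TMM scaling and filterByExpr by group, using the robust form of glmQLFit and then glmQLFTest, with Benjamini-Hochberg adjustment over 17268 genes. Standard errors come from the F statistic. p-values measure only the spread between these pools. Alternatives were DESeq2 1.42.0 on 6 or 4 libraries, its size factors in edgeR, edgeR on 4 libraries, other filters (none, or at least 10 counts in every library), the replicate number as a block, no robust estimation, an adjusted p under 0.05, and leaving out each library. Ranks per kb were added after seeing the data. No libraries held identical counts. The scripts were tested on simulated data.

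All 10 members are named. From each wider list, every called gene and up to 2 genes per comparison with the largest fitted change among those whose groups did not overlap are named, and for each member the nearest other genes by pattern. Nfe2l2, Bach1, Slc3a2, Tfrc and Ncoa4 were named besides, after their values were seen. Gene positions and transcripts are from GENCODE M21 (GRCm38), which holds 53292 of the 55291 symbols, and promoter windows from RefSeq (GRCm38.p6).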

Additional observations from a re-analysis of the deposited data

Results flagged for a closer look

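Hmox1 was singled out because its libraries moved in opposite directions in the Gpr125+ populations: both TEB-distal libraries were below both libraries labelled Gpr125-negative (log2 fold change -0.44, SE 0.81) and both nipple-proximal libraries were above them (1.07, SE 0.82). The TEB-distal margin was narrow (9248 against 9595 CPM), and its change ran from -0.93 to -0.09 when 1 library was left out. The share of all tested genes placed in this way was not computed. Both comparisons use the same Gpr125-negative libraries. Neither change was called, and the difference between these 2 changes is the comparison of TEB-distal with nipple-proximal cells, which edgeR's quasi-likelihood test did not call (log2 fold change -1.51, SE 0.83, adjusted p = 1). Over the alternatives that change was between -2.01 and -1.09, and the smallest adjusted p was 0.356.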

How the results depend on the processing

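The number of members called was 0 in every comparison under all alternatives run. The number of all genes called in edgeR's main fit was 0 in each comparison, and it changed with the test: in the order TEB-distal against Gpr125-negative, nipple-proximal against Gpr125-negative and TEB-distal against nipple-proximal, DESeq2 called 943, 321 and 129 genes on 6 libraries and 667, 317 and 360 on the 4 compared, and edgeR without a filter called 137, 58 and 39. Leaving out 1 library gave 0 to 747, 0 to 335 and 0 to 12 genes: 747 and 335 without replicate 1 of the Gpr125-negative group, 4 without its replicate 2 in the first comparison, 4 without either nipple-proximal replicate in the second, and 12 without nipple-proximal replicate 2 in the third. The lone library left is then assumed to vary like the other groups. The cause was not tested. The median change of the members, -0.02, 0.58 and -0.53 on the log2 scale as reported, ran from -0.119 to -0.0851, 0.21 to 0.88 and -0.83 to -0.27 when 1 library was left out, and from -0.07 to 0.01, 0.41 to 0.58 and -0.54 to -0.37 under the other alternatives. Of 360 single member values, 19 had the opposite sign to the reported one. DESeq2's size factors shifted the median of all genes by -0.03, -0.15 and 0.13, and the medians of the members with them to -0.06, 0.42 and -0.40. Replicate numbers do not pair the libraries (correlations of same-numbered libraries -0.03, 0.19 and -0.00), and the fit with a replicate block called 0 genes in each comparison, with member medians of -0.02, 0.58 and -0.52. The effect of depth on the number of calls was not tested.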
